A study of Homo sapiens with 7 samples.

Results

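The clustered protocadherins of human chromosome 5 were described in HepG2, a hepatoma cell line, by their RNA level and by 5 histone marks at single-nucleosome positions. Members were the entries of the expression table on chromosome 5 with a gene symbol starting with PCDHA, PCDHB or PCDHG, and the region ran from the lowest start to the highest end of these entries with 20 kb on either side. An entry, here called a row, can hold several symbols. The rule found 16 of 30032 rows with 57 symbols: 1 PCDHA row of 15 symbols, 13 PCDHB rows of 19 and 2 PCDHG rows of 23. The region, chr5:140145513-140912546 in hg19, the build named in the submitters' processing notes, held 3867 of 14217405 nucleosome positions.

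The study mapped nucleosomes of untreated HepG2 by native MNase-Seq, in which chromatin is digested without crosslinking, and then asked which of these positions carried each mark in ChIP-Seq. There were 7 samples, 1 per assay: the nucleosome map, H3K4me3, H3K9ac, H3K27ac, H3K27me3, H3K9me3 and RNA-Seq. No groups could be compared and no P value was computed. The position lists give no read counts, so the depth behind a position is unknown, and the intervals given below are exact Clopper-Pearson 95% intervals that cover counting error only.

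Clustered protocadherins are cell adhesion proteins best known from neurons, where each cell uses a small set of them as a surface identity. In the alpha and gamma clusters each variable first exon has its own promoter and is spliced to constant exons at the end of the cluster, whereas the beta genes are separate single-exon genes. Promoter choice depends on DNA methylation and on CTCF and cohesin, which join promoters to distant enhancers. H3K4me3, H3K9ac and H3K27ac are marks of active promoters, and H3K27ac is also one of active enhancers. H3K27me3 and H3K9me3 are marks of silenced chromatin.

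Promoters of members are shown first, because several of the H3K4me3 positions described below lie just downstream of a start. RefSeq promoters of GRCh38.p14 (250 bases before to 50 bases after the start) matched 47 of the 57 symbols, with 52 windows in all. PCDHGB1, PCDHGB4, PCDHGB5, PCDHGB6 and PCDHGC4 each have a second window that overlaps the first and was counted separately. Since the builds differ, promoters were linked to the rows by symbol and never by coordinates. A RefSeq start may differ from the start of a row. The windows of PCDHA1 (chr5:140785890-140786189), PCDHB1 (chr5:141051124-141051423), PCDHB2 (chr5:141094365-141094664), PCDHB12 (chr5:141208469-141208768), PCDHB15 (chr5:141245145-141245444) and PCDHGA1 (chr5:141330264-141330563), all on the plus strand, are printed 5′ to 3′. PCDHA1, PCDHB1 and PCDHGA1 open their clusters, PCDHB2 belongs to the beta row with the most RNA, and PCDHB12 and PCDHB15 are single beta genes with H3K4me3 at their start. Capitals mark CGCT, the core of the element that protocadherin promoters share, on either strand (AGCG on the other).
PCDHA1: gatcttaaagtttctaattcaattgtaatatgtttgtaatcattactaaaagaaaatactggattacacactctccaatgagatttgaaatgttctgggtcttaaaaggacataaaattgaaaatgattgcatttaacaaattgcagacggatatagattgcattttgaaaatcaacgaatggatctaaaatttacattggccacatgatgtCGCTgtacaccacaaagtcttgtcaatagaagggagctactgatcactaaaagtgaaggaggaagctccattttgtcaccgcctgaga
PCDHB1: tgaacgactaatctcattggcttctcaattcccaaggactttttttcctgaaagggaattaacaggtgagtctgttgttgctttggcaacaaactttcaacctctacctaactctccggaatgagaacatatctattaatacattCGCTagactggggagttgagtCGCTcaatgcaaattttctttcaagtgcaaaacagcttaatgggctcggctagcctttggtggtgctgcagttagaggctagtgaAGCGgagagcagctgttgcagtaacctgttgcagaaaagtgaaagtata
PCDHB2: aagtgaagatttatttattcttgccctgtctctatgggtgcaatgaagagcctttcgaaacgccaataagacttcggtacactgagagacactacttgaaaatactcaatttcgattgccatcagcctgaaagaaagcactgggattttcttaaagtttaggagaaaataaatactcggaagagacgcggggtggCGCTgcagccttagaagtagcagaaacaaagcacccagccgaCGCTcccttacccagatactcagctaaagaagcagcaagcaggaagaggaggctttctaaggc
PCDHB12: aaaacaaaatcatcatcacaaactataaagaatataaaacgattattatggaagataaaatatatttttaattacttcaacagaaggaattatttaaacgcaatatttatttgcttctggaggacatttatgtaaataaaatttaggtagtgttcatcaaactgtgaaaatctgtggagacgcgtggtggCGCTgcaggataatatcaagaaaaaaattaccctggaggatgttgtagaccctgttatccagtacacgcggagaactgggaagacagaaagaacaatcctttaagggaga
PCDHB15: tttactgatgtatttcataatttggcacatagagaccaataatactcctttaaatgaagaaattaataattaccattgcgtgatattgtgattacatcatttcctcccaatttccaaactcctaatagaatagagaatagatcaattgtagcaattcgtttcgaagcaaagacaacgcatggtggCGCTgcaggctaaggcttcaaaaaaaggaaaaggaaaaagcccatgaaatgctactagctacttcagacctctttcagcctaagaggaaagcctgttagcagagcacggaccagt
PCDHGA1: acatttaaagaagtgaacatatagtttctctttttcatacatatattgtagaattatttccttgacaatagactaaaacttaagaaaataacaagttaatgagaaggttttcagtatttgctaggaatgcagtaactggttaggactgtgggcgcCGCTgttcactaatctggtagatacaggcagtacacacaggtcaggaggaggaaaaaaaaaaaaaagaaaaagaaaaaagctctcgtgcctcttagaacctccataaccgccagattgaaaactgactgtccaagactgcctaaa

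CGCT was found in 51 of the 52 windows (98.1%), the exception being PCDHA9, against 70.0% of all 35093 RefSeq promoters. Within the PCDHB windows the core sat in a longer shared word. GGTGGCGCTGC, read on the strand of the gene, was present in 11 of 14 PCDHB windows (78.6%) and in 27 of all 35093 promoters (0.0769%). Among the sequences printed, PCDHB2, PCDHB12 and PCDHB15 hold it, and PCDHB1 does not. The first base of the word lay 2 to 84 bases before the RefSeq start, with a median of 65 bases. The corresponding word of the alpha cluster, ATGATGTCGCT, was present in 8 of 13 PCDHA windows (61.5%), PCDHA1 among them, and in no other promoter. In the gamma cluster GCGCCGCTGTT was present in 7 of 25 windows (28.0%), among them PCDHGA1, and in 12 of all 35093 promoters (0.0342%). It was thus not confined to the cluster. PCDHGB4 and PCDHGB5 hold it in the first of their windows, and their second windows begin inside it. These words of 11 bases around CGCT were the ones found in most windows of their cluster, searched after the sequences had been seen. Their matches describe letters, not bound sites.

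The protocadherin windows were low in CG dinucleotides, with a median of 7.5 per window against 14 in all promoters. The median was 7 in PCDHA, 7.5 in PCDHB and 10 in PCDHG. GC content of the printed windows was 34.0% in PCDHA1, 43.0% in PCDHB1, 45.3% in PCDHB2, 33.3% in PCDHB12, 38.0% in PCDHB15 and 36.3% in PCDHGA1. Other windows stood above these, among them PCDHAC1 at 66.0%, PCDHAC2 at 63.0% and PCDHGC3 at 59.0%. In 1 of their windows each, PCDHGB6 was at 65.0%, PCDHGB5 at 60.0% and PCDHGB4 at 58.7%. Of the other motifs searched on both strands, TATAAA was in 6 windows (11.5%, as in all promoters) and GCCCCC in 1 (1.92% against 38.2%). A loose form of the CTCF core motif was in 6 windows (11.5% against 26.2%), each of them in PCDHG. A window without these letters says nothing about whether a factor binds there.

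RNA of the gamma cluster was the highest among the members. The PCDHG row, chr5:140710252-140892546, reached an FPKM of 4.99 in the first and 5.05 in the second of the 2 runs, as the value columns of the RNA sample are called here. The row takes 22 gamma symbols together, so the level could not be given to single gamma genes. The pseudogene PCDHGB8P, listed over the same coordinates, had an FPKM of 0.0205 and 0. FPKM is a level per length of transcript, and whether the runs are separate cultures is not stated, so their spread may be technical.

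The alpha cluster was lower. Its single row, chr5:140165513-140391940, which holds all 15 alpha symbols, reached only 0.809 FPKM in run 1 and 0.584 in run 2. Rows with a mean FPKM from 0.1 to 1 differed between the runs by a median of 1.37-fold over the whole table, with a 90th percentile of 2.86-fold, so the alpha runs are as close as such rows usually are.

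In the beta cluster a few rows carried nearly all of the RNA. The row of PCDHB2, PCDHB3 and PCDHB11 stood at 3.22 FPKM in run 1 and 3.09 in run 2. The row of PCDHB8, PCDHB9, PCDHB10 and PCDHB16 had 0.549 and 0.883, and that of PCDHB13 and PCDHB14 had 0.454 and 0.432. Each of these rows joins several genes. Among rows with a single beta gene, PCDHB15 had the highest mean FPKM, 0.137, but its runs were at 0.218 and 0.0547. That gap is wider than the 90th percentile for rows of its level, and run 2 alone would put PCDHB15 among the rows under 0.1.

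The other beta rows, each of 1 symbol, lay at the bottom of the scale. PCDHB7 was at an FPKM of 0.0507 and 0.0577, PCDHB18 at 0.0276 and 0.0792, and PCDHB5 at 0.0562 and 0.0157. PCDHB4, PCDHB6 and PCDHB12 had means of 0.0214, 0.0228 and 0.0210. PCDHB19P, a pseudogene, was at 0 in run 1 and 0.0245 in run 2. PCDHB1, the first beta gene, and the pseudogene PCDHB17 were listed at 0 in both runs. Rows under 0.1 differed between runs by a median of 1.70-fold and a 90th percentile of 3.50-fold, so no order can be read among these rows.

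**Figure D1:**
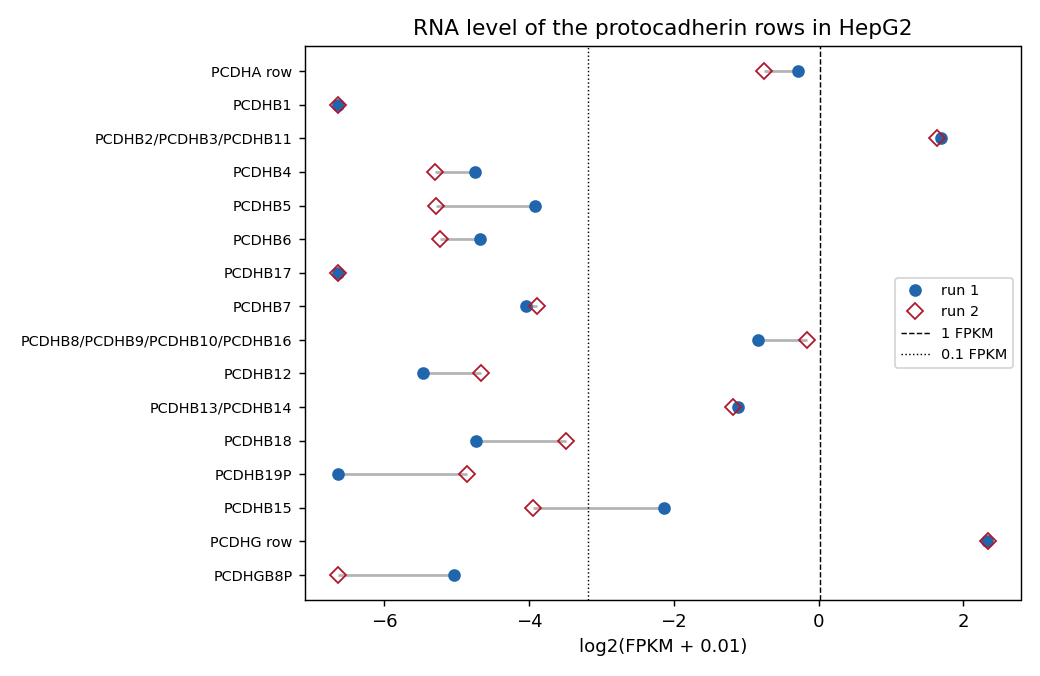
RNA level of each of the 16 protocadherin rows on a log2(FPKM + 0.01) axis, with run 1 as filled circles, run 2 as open diamonds and a line joining them. The PCDHG row and the row of PCDHB2, PCDHB3 and PCDHB11 are the 2 rows to the right of the line at an FPKM of 1, and 10 rows have a mean left of the line at 0.1.

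By mean FPKM 2 of 16 rows (12.5%) were at 1 or more, against 51.3% of 22113 named rows of the table. A mean under 0.1 was found in 10 rows (62.5%), against 36.6% of named rows, and 4 rows lay between. The median over the members was 0.0447, against 1.24 over named rows and 0.217 over all rows. On the log2(FPKM + 0.01) scale the median of the members was below that of all rows by a difference of -2.07. Assignment of reads among near-identical beta genes is uncertain: 7 PCDHB rows with 12 symbols were listed over the same stretch, chr5:140474173-140583341, and the 16 member rows have 9 distinct pairs of coordinates.

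Nucleosomes themselves were spaced in the region as elsewhere. Starts of neighbouring positions lay a median of 180 bp apart, the same as in the rest of chromosome 5, and 22.1% of neighbouring positions overlapped against 22.8%. Density ranged from 4.81 positions per kb in the beta cluster to 5.39 per kb between the beta and gamma clusters.

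Marks were found at 72 of the 3867 positions, 1.86% against 1.43% in the rest of the genome. H3K4me3 was the most frequent, at 39 positions (1.01%, interval 0.718 to 1.38%), 1.67-fold the share in the rest of the genome. H3K9ac was at 20 positions (0.517%, 0.316 to 0.798%), 0.959-fold, with the genome share inside the interval, and 1.32-fold the share in the rest of chromosome 5. H3K27ac was at 6 positions (0.155%, 0.0570 to 0.337%), 0.230-fold the share of 0.675% elsewhere. The acetyl marks thus parted: H3K9ac was near the genome share and H3K27ac below it. Of 3678 windows of the same length across the genome, 47.2% had a H3K27ac share at least 2-fold below that of the genome, so a low share alone is common.

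Calls of the marks of silenced chromatin were thinly spread. H3K9me3 was at 21 positions (0.543%, 0.336 to 0.829%), 2.24-fold the share in the rest of the genome and 1.80-fold that in the rest of chromosome 5. Among windows of the same length 9.57% reached 2-fold or more over the genome. H3K27me3 was at 10 positions (0.259%, 0.124 to 0.475%), 1.40-fold, with the genome share of 0.185% inside the interval. Joined over gaps of up to 1 kb, the H3K9me3 positions formed 18 stretches, 16 of which were a single position, and the longest was 3 positions over 440 bp. H3K27me3 formed 8 stretches, 6 of a single position. Neither mark was called over a continuous domain. The authors' calls were filtered against the local background of the same library, so a broad domain may go uncalled. How often stretches elsewhere were a single position was not counted, so this is not given as a trait of the region.

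**Figure D2:**
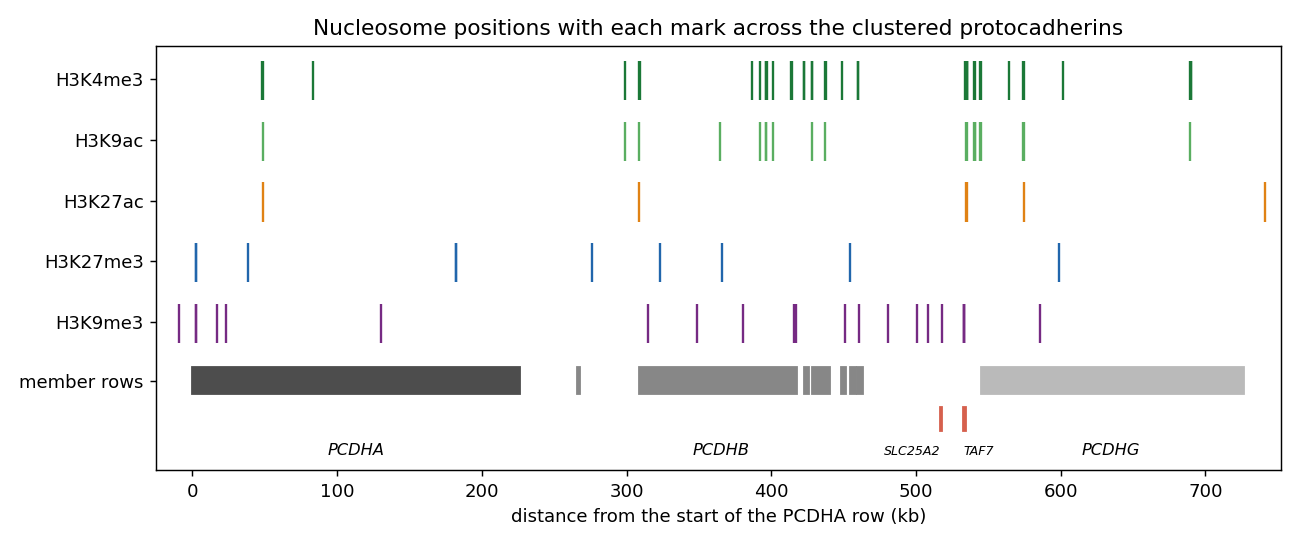
Marked nucleosome positions by distance from the start of the PCDHA row in kb, with a tick for each position and a line of ticks for each of the 5 marks; grey bars are the member rows and red bars SLC25A2 and TAF7. H3K4me3 ticks are dense over PCDHB, with 20 positions, and sparse over PCDHA, with 3.

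The 3 clusters differed in how much H3K4me3 they carried. From PCDHB1 to PCDHB15, 20 of 953 positions had H3K4me3, 2.10% with an interval of 1.29 to 3.22%, 3.48-fold the share in the rest of the genome. Over the alpha row it was 3 of 1148 positions, 0.261% with an interval of 0.0539 to 0.762%. The intervals of the beta and alpha clusters do not overlap. Over the gamma row it was 8 of 918 positions, 0.871% with an interval of 0.377 to 1.71%, which overlaps both. H3K9ac was at 9 beta, 1 alpha and 4 gamma positions, and H3K27ac at 1 position in each cluster. The alpha, beta and gamma shares of H3K4me3 cannot be ordered beyond beta over alpha. That order is descriptive: it comes from 1 library, and the intervals count neighbouring positions as separate. The 3 alpha positions, for instance, formed 2 groups when joined over gaps of up to 1 kb.

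H3K9me3 was at 7 beta positions (0.735%, 0.296 to 1.51%), 5 alpha positions and 1 gamma position. H3K27me3 was at 4 beta, 5 alpha and 1 gamma position. The 81.321 kb between PCDHB15 and the gamma start held 7 of 438 positions with H3K9me3 (1.60%, 0.645 to 3.27%), 6.58-fold the share in the rest of the genome. Of these, 1 lay in the row of SLC25A2, a mitochondrial ornithine carrier, and 3 in that of TAF7. The 39.038 kb between the alpha cluster and PCDHB1 held no marked position among 203, for which the exact interval of each mark reaches up to 1.80% and the limit of 3 counts is 1.48%.

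**Figure D3:**
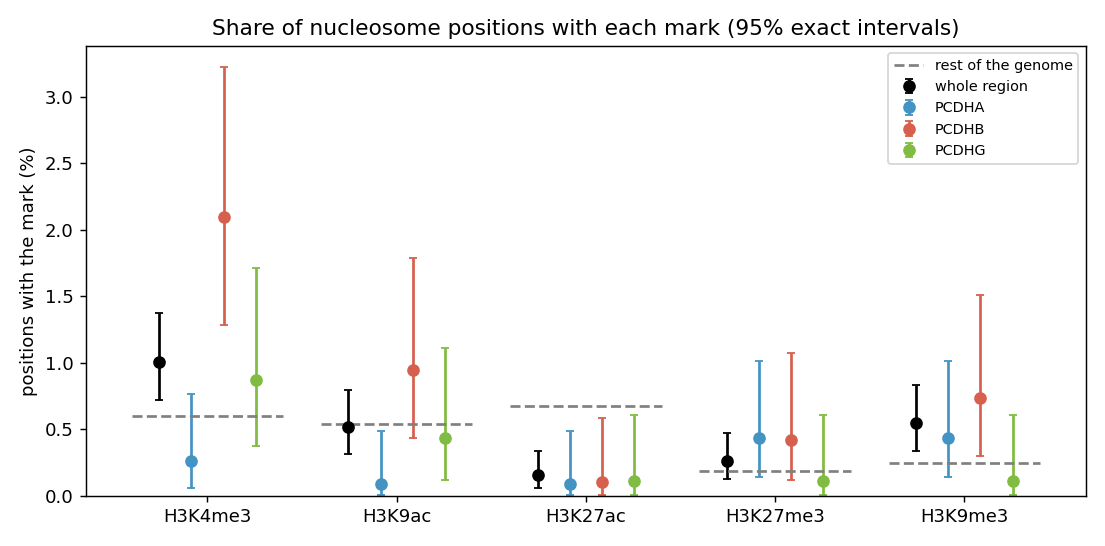
Percent of nucleosome positions with each mark in the whole region and in the PCDHA, PCDHB and PCDHG clusters, with exact 95% intervals as bars and the rest of the genome as dashed lines. For H3K4me3 the beta point at 2.10% lies above and the alpha point at 0.261% below the genome share of 0.603%, and for H3K27ac all points lie below the dashed line at 0.675%.

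At the starts of the rows, H3K4me3 was found within 2 kb at 6 of the 9 distinct starts, or 13 of 16 rows when rows of shared coordinates are counted singly. The share over named rows outside the cluster was 57.0% of 13603. H3K9ac was at 3 starts (54.0% in the background), H3K27ac at 1 (48.9%), H3K27me3 at 1 (7.59%) and H3K9me3 at 1 (2.11%). With the start counted once, the H3K4me3 count of the protocadherins was thus near the share over named rows. The acetyl counts were below it, on only 9 starts. Expression differs between these groups of rows, as given above. Among rows with coordinates of their own, H3K9ac was at 7.05% under an FPKM of 0.1, 38.9% from 0.1 to 1 and 90.3% at 1 or more. For H3K27ac these shares were 2.28%, 18.9% and 86.2%. The acetyl counts were therefore not read as low for the RNA level of the members.

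At the starts within the beta cluster, 9 of its 20 H3K4me3 positions lay within 2 kb. PCDHB12 had H3K4me3 alone at 131 and 231 bp. PCDHB15 had it alone at 289 and 444 bp, and PCDHB18 alone at 169 bp. PCDHB13, sharing a row with PCDHB14, had H3K4me3 alone at -5 bp and H3K4me3 with H3K9ac at 165 bp. None of these 4 starts had H3K27ac within 2 kb.

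The shared beta stretch, which begins at the start of the row with PCDHB2, was the exception. Its position at 294 bp carried H3K4me3, H3K9ac and H3K27ac together, the combination called "T" in the study, and the position at 799 bp carried H3K4me3 alone. The gamma start had H3K4me3 with H3K9ac at -120 and 75 bp. The alpha start and PCDHB1 had no mark within 2 kb. PCDHB19P had H3K27me3 at 435 bp, and PCDHB15 had H3K9me3 at 1579 bp beside its H3K4me3. The 11 H3K4me3 positions near starts all lay between -120 and 799 bp, 9 of them downstream.

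**Figure D4:**
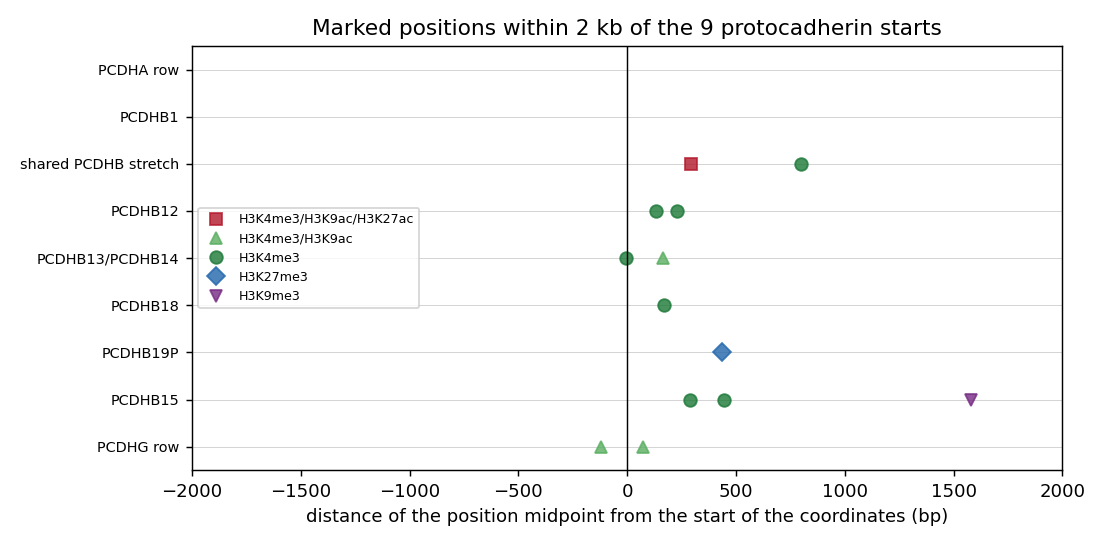
Marked positions within 2 kb of each of the 9 distinct protocadherin starts, by distance of the position's midpoint from the start in bp, with symbols for the combination of marks. Positions with H3K4me3 lie between -120 and 799 bp, the shared PCDHB stretch is the only start with H3K4me3, H3K9ac and H3K27ac on 1 position, and the PCDHA row and PCDHB1 have none.

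H3K4me3 was also set against RNA at the starts. Of the 6 starts with H3K4me3, 5 lacked H3K27ac within 2 kb, against 16.8% of 7757 named rows with H3K4me3. Lack of H3K27ac is tied to RNA level in the table: among rows with H3K4me3 and coordinates of their own it was 86.7% at an FPKM under 0.1, 68.2% from 0.1 to 1 and 6.97% at 1 or more. PCDHB12 and PCDHB18, under 0.1, and PCDHB13 with PCDHB14 and PCDHB15, from 0.1 to 1, fall in classes where it is usual. Among rows with an FPKM from 3 to 6 it was 12.7% of 631, and the gamma row, at a mean of 5.02, lacked H3K27ac at its start. That FPKM pools 22 symbols with promoters of their own, so the RNA need not come from the start examined, and a position 29640 bp into the row did carry H3K27ac. Conversely, H3K4me3 was at 11.6% of 3293 rows of their own coordinates under 0.1, at 51.8% from 0.1 to 1 and at 91.5% at 1 or more. Under 0.1, PCDHB12 and PCDHB18 were the member rows with a start of their own that had it, and PCDHB1 and PCDHB19P those that did not.

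Most H3K4me3 of the region was away from the starts of the rows. Of the 39 positions 11 were near a member start, 5 near the start of TAF7, 20 inside member rows and 3 in unnamed rows only. Grouped over gaps of up to 1 kb, the shared beta stretch had 10 positions in 6 groups, over 12 symbols. The groups lay at the start and, from 386.761 kb to 414.039 kb past the alpha start, over the last part of the stretch. The gamma row had 8 positions in 5 groups over 23 symbols. One group, at 29435 and 29640 bp into the row, held a position with H3K4me3, H3K9ac and H3K27ac, and another held 3 positions from 145050 to 145692 bp. The alpha row had 2 groups over 15 symbols: a pair at 48354 and 48609 bp, the second with all 3 marks, and a single position at 83467 bp. The row of PCDHB13 and PCDHB14 had a second pair at 9540 and 9730 bp. Without an annotation of the same build these groups were not given to single genes. Rows of several symbols hold promoters past the row start. Positions away from the row starts may therefore lie at promoters of single genes, and this was not tested.

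Across the region H3K4me3 differed from that of the genome, taken at any RNA level, in what it was combined with. Of 39 positions, 21 (53.8%, interval 37.2 to 69.9%) had H3K4me3 alone, 13 (33.3%) had H3K9ac as well, and 5 (12.8%, 4.30 to 27.4%) had H3K9ac and H3K27ac. In the rest of the genome the corresponding shares were 27.3%, 17.7% and 49.9% of 85675 positions. Neighbouring positions of 1 promoter share it, so the interval is narrower than independent promoters would give. Leaving out the start of TAF7, 18 of 34 (52.9%) had H3K4me3 alone and 3 (8.82%) had H3K27ac. At starts of rows with low RNA, H3K4me3 without H3K27ac was usual, as given above. Whether the region differs from positions of like RNA level was not tested. In windows of the region's length with at least 20 H3K4me3 positions, 1.82% of 1536 had over 50% of them alone, and 4.95% had a H3K27ac share at least 2-fold below that of the genome, with limits chosen after the values were seen. No position had H3K4me3 with H3K27me3. In the rest of the genome these 2 marks without others made up 0.258% of H3K4me3 positions, and with H3K9ac added 0.173%. Their absence among 39 positions was therefore not read as a trait of the region. H3K27me3 and H3K9me3 shared 1 position, 2429 bp into the alpha row. That is 0.0259% of positions, against 0.00599% with these 2 marks only in the rest of the genome.

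**Figure D5:**
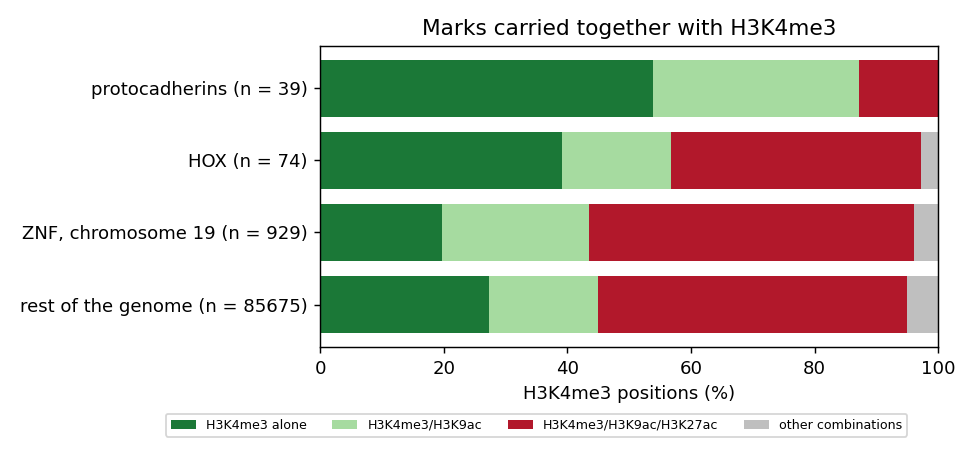
Percent of H3K4me3 positions with H3K4me3 alone, with H3K9ac, with H3K9ac and H3K27ac, and in other combinations, for the protocadherin region, HOX rows, ZNF rows of chromosome 19 and the rest of the genome. H3K4me3 alone takes 53.8% of the bar in the protocadherins and 27.3% in the rest of the genome.

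Other clustered families gave different pictures. HOX rows, which encode body-axis transcription factors, had a median FPKM of 0.0143 over 32 rows, of which 6 (18.8%) were at 1 or more, with H3K4me3 at 3.81% and H3K27ac at 2.26% of 1943 positions. The HOX clusters differed among themselves: H3K4me3 was at 6.63% of positions in HOXA and 7.26% in HOXD, and at 1.54% in HOXC and 0.842% in HOXB. In HOXB, where 0 of 8 rows had an FPKM of 1 or more, the 4 H3K4me3 positions were all without another mark and H3K27ac was at 0 of 475 positions. Over all HOX rows, H3K4me3 was alone at 39.2% (28.0 to 51.2%) of 74 positions, an interval that overlaps that of the protocadherins. It was with H3K27ac at 43.2% (31.8 to 55.3%), an interval that does not overlap the 4.30 to 27.4% of the protocadherins. Among the single HOX clusters only HOXA (32.4 to 67.6%) lay apart from it, and HOXB, HOXC and HOXD (25.5 to 64.7%) overlapped it. These intervals count neighbouring positions as separate. Olfactory receptor rows of chromosome 11, of which 0 of 169 had an FPKM of 1 or more, had H3K4me3 at 0 of 5898 positions, for which the exact interval reaches up to 0.0625% and the limit of 3 counts is 0.0509%. Their H3K9me3 share was 0.543% (0.371 to 0.765%). The protocadherin share was 0.543% over the region with its gaps and flanks, 0.468% without the TAF7 start, and from 0.109% over the gamma row to 1.60% between the beta and gamma clusters. ZNF rows of chromosome 19, mostly zinc finger repressors, had a median FPKM of 1.88, H3K4me3 at 2.58% and H3K27ac at 1.82% of 35958 positions, and H3K4me3 alone at 19.7% of 929.

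Genes inside or at the edge of the region were read for contrast. TAF7, a subunit of the general transcription factor TFIID, lies on the minus strand between PCDHB15 and the gamma start, and had an FPKM of 50.8 and 49.5. Its start held 5 H3K4me3 positions over 1335 bp, the longest H3K4me3 stretch of the region, with H3K9ac and H3K27ac on 2 of them, and 3 H3K9me3 positions lay inside the gene. SLC25A2 had an FPKM of 0.0611 and 0. DIAPH1, a formin that nucleates actin, begins its row in the downstream flank, with its start outside the region, and had an FPKM of 29.5 and 29.6 with 4 H3K4me3 positions at the start, 2 of them with H3K9ac and H3K27ac. Without the start of TAF7 the H3K9me3 share of the region was 1.93-fold and the H3K4me3 share 1.47-fold that in the rest of the genome.

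RNA of factors known to act on the clustered protocadherins was present. Of 19 factors, listed in 21 rows, 20 rows had an FPKM of 1 or more, with a median of 17.9. TRIM28, a corepressor, was the highest at a mean of 73.2, followed by the cohesin subunit RAD21 at 58.9. The lowest were a second row of the cohesin subunit STAG2 at 0.613, the zinc finger proteins WIZ at 5.02 and ZNF143 at 5.04. CTCF had an FPKM of 22.6 and 23.1. Of 18 rows with a strand, 16 had H3K4me3 at the start, against 91.5% of rows at an FPKM of 1 or more. The same number had H3K4me3, H3K9ac and H3K27ac on 1 position, against 84.0%. STAG2 and NIPBL are each counted in 2 rows of the same coordinates.

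Non-clustered protocadherins lie elsewhere and have no shared exons. Of their 12 rows, 0 had an FPKM of 1 or more and 11 were under 0.1. The highest were PCDH1 at a mean of 0.256, PCDH9 at 0.0438 and PCDH7 at 0.0251, and PCDH15, PCDH17 and PCDH20 were listed at 0. Clustered rows of a single symbol reached a mean of at most 0.137, in PCDHB15, which is below PCDH1. Only clustered rows that pool several symbols were above PCDH1. H3K4me3 was at the start of PCDH1 and PCDH9 and H3K27me3 at that of PCDH7 and PCDH18. Of the classical and other cadherins, CDH2 (N-cadherin) had a mean FPKM of 19.3 and CDH1 (E-cadherin) of 6.24. CDH5 was at 0.693, CDH4 at 0.387 and 0.434 in 2 rows, and CDH3 at 0.114. CDH11, CDH17 and CDH6 were at 0.0496, 0.0453 and 0. The PCDHG row was of the order of CDH1, and no non-clustered protocadherin came near it. That row pools 22 symbols, whereas the rows of CDH1 and of the non-clustered protocadherins hold 1 gene each, so single gamma genes were not compared.

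The label of the cells was checked with markers. Of the hepatocyte genes, ALB had a mean FPKM of 10011, APOA2 5209, AFP 3798, APOA1 1427 with 0.923 in a second row, SERPINA1 1061, TF 1006, TTR 152 and FGB 56.6. Of neuron genes, SYT1, MAP2, STMN2, RBFOX3 and NEFL were under 0.1. TUBB3, in a row with other symbols, was at 112, and of 3 SNAP25 rows 1 had 2.10 and 7.07 in the runs and the others were under 0.1. PTPRC was listed at 0, PECAM1 was at 0.137 and COL1A1 at 0.164. CD68 was at 543, in a row that joins 7 symbols.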

How the data were processed

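Nucleosomes, 5 histone marks and RNA were measured in HepG2, 1 sample per assay, grouped by antibody or title. The authors called nucleosome positions with DANPOS and marks with NUCLIZE, and deposited coordinates with identifiers (140 bp positions). All 319086 peaks were matched to the position whose identifier they carry; peaks reach 3 bp beyond it. The deposited FPKM values, given in 2 columns for the RNA sample (run 1 and run 2), were averaged. No counts are given, so depth is unknown. The submitters' processing notes list BWA, Bowtie, TopHat2 2.1.0, HOMER 4.7, edgeR and hg19 without roles, and the annotation is not given in the sources used here. The p-value and fold change columns of the authors' own comparison of the runs were not used.

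A position counted at a start if its midpoint was within 2 kb. Strand came from RefSeq, and rows outside the cluster without one were left out of start counts. All member rows were instead taken to be on the plus strand and were counted. These include rows such as PCDHB18 and PCDHB19P, whose symbols have no RefSeq promoter. Runs of marked positions were joined over gaps of up to 1 kb. Rows at an FPKM of at least 1 counted as expressed and under 0.1 as silent, and logs used a pseudocount of 0.01. Named were rows at 1 or more, the 5 highest, the rows with most marks, all genes of the region, and the 3 highest and lowest of each list (all of lists of up to 8), except 1 gene that is not reported here. Members and lists were chosen with earlier results of these data known. Alternatives were other windows, flanks, gaps, limits, pseudocounts, single runs and chromosome 5 as background. Added after seeing the data were the exclusion of the TAF7 start and 1 start per pair of coordinates. Counting was tested on simulated data. Tables were handled with pandas 2.3.3 and numpy 2.4.6 in Python 3.11.15, intervals with scipy 1.17.1 and plots with matplotlib 3.10.9.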

Additional observations from a re-analysis of the deposited data

How the results depend on the processing

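Of 88 recomputed values 73 moved by less than the counting interval or stayed within 1.5 times the count, 13 moved and 2 changed side. The H3K9ac share of the protocadherins, 0.959-fold that of the rest of the genome, was 1.01-fold without the flanks and 1.32-fold against the rest of chromosome 5, so no direction is given to it. Counting each distinct start once lowered rows with H3K4me3 from 13 to 6, with H3K9ac from 10 to 3 and with H3K27ac from 7 to 1, by construction. A window of 5 kb gave 3 rows with H3K27me3 and 4 with H3K9me3, in place of 1 each, and a window of 1 kb gave 0 with H3K9me3. An FPKM limit of 0.1 gave 6 expressed rows and one of 5 gave 1, in place of 2. The difference of the member median from all rows, -2.07, was -0.22 with a pseudocount of 1, -4.95 among rows above 0, -2.17 in run 1 and -2.16 in run 2. Joining over 2 kb lengthened the longest H3K9me3 stretch from 440 to 1193 bp. No paired analysis was possible because each assay has 1 sample. Read depth per position is unknown, so a missing call may be a shallow one, and shared rows hide single genes.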
